A study of Mus musculus with 3 samples.

Results

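The BCL2 family decides whether a cell keeps its mitochondria intact, and 8 of its genes were followed through the macrophages of mouse mammary tumours. They were Bcl2a1a, Bcl2a1b, Bcl2a1d, Bcl2, Bcl2l1 and Mcl1, which protect cells, Bax, which forms the pore, and Bcl2l11, which triggers it. These 8 of the 31053 features form a list chosen by their UMI levels across macrophage states in an earlier look at these same cells, and were described in the 9749 cells, of 10973 barcodes, that had at least 500 detected genes and at most 15% mitochondrial UMIs. The members' levels are therefore given as a description, without a test.

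The samples were 3 mammary adenocarcinomas of 750 mm3, 1 per mouse, from strain FVB/N-Tg(MMTVPyVT)634Mul/J, in which the MMTV promoter drives the polyoma middle T oncogene in mammary epithelium. All 3 belonged to a single group, with no healthy tissue or treated tumour beside them, and the ages of the mice are not given in the sources used here. Tumours were digested with Collagenase I and DNase I at 37°C, and cells positive for CD45, CD11b and F4/80 and negative for Ly6G were sorted and their RNA was read with the 10x 3' v3 chemistry. The comparison the design allows is therefore between macrophage states within each mouse.

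Anti-apoptotic members (A1, encoded by the Bcl2a1 genes, BCL2, BCL-XL from Bcl2l1, and MCL1) hold the pore formers BAX and BAK in check at the outer mitochondrial membrane. BH3-only proteins such as BIM, the product of Bcl2l11, occupy the anti-apoptotic proteins and can activate BAX, after which cytochrome c leaves the mitochondrion and caspases are switched on. A1 is largely restricted to blood cells and is induced by inflammatory signals in myeloid cells, while MCL1 is a short-lived protein known for its part in keeping neutrophils alive.

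Mice 1, 2 and 3 contributed 663, 2108 and 6978 cells, with medians of 15014, 13600 and 9318.5 UMIs per cell. Mitochondrial UMIs above 15% removed 387, 298 and 307 barcodes, which was 36.03% of the barcodes in mouse 1, 12.1% in mouse 2 and 4.13% in mouse 3. Mice 2 and 3 shared 7 cell barcodes, and no other pair shared any. Clustering without the members and the other genes tested here gave 16 clusters, of which cluster 15 (62 cells) was tumour epithelium-like and the other 15 (9687 cells) were taken as macrophages. All 11 lineage genes (Adgre1, Csf1r, C1qa and others) were detected in at least 10% of cells in 14 of these 15, and 10 of 11 in cluster 10, while Ly6g was found in none of the cells. Clusters 1 (heat shock and immediate early-like), 3 and 11 (both LYVE-1 resident-like), 5 (G2 and mitosis-like), 7 (Retnla Fn1 Ear2-like), 8 (interferon-like), 9 (hypoxia-like) and 12 (S phase-like) could be named from markers. The others are called by their leading genes. These were Cd207, Il12b and Ccl22 in cluster 0, Il1r2, Rrad and Rims2 in cluster 2, Ccl24, Plac8 and Nrg1 in cluster 4, and Txnip and Il16 in cluster 6. Cluster 10 was led by Retnla and Ccl8, cluster 13 by Gm33195 and Ctcflos, and cluster 14 by Gm11713, Mir155hg and Itgb8. Clusters 10 and 14 were shallow, with medians of 1926 and 1594 UMIs, and cluster 14 held only 81 cells with a median of 7.997% mitochondrial UMIs.

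The 3 Bcl2a1 genes are near-identical copies on chromosome 9 and had to be kept apart and also summed. In mm10, Bcl2a1d (ENSMUSG00000099974) lies at chr9:88723285-88731914 on the minus strand, Bcl2a1a (ENSMUSG00000102037) at chr9:88956900-88962419 and Bcl2a1b (ENSMUSG00000089929) at chr9:89199209-89207827, both on the plus strand, within 484.5 kb. Their transcripts were 98.2% (a and b), 98.8% (a and d) and 99.1% (b and d) identical, and in the last 400 bases, where 3' reads fall, they were 98.5%, 99.3% and 99.3% identical. Of the 311 possible 90-base reads in that stretch, 227 of Bcl2a1a, 205 of Bcl2a1b and 122 (39.2%) of Bcl2a1d were in no other Bcl2a1 transcript. Reads that match more than 1 copy cannot be told apart, and how they were counted is not given in the sources used here, so the level of each copy, and of Bcl2a1d most, is uncertain, and so is the sum. A predicted gene, Gm29094, overlaps Bcl2a1b on the same strand. It also shares at least 1 stretch of 40 bases with the last 400 bases of each of the 3 copies. The 90-base reads were not compared with it. The reads also came from FVB mice, while the reference is C57BL/6J.

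The promoters show how alike the copies are just outside the transcript. The RefSeq windows from 250 bases before to 50 after the annotated start (GRCm38.p6) lie at chr9:88956670-88956969 (plus strand) for Bcl2a1a, chr9:89199023-89199322 (plus strand) for Bcl2a1b and chr9:88731801-88732100 (minus strand) for Bcl2a1d, and read 5' to 3':
Bcl2a1a: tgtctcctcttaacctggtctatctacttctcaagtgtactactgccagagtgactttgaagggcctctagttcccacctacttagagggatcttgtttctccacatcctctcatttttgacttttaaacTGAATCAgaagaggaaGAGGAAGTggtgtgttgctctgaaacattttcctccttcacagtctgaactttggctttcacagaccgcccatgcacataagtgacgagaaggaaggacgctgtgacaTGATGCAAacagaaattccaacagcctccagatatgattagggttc
Bcl2a1b: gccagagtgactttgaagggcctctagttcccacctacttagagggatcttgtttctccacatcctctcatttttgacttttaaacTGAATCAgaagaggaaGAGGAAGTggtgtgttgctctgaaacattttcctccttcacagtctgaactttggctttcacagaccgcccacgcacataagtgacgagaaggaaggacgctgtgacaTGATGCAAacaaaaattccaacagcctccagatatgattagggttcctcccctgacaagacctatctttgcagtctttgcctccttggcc
Bcl2a1d: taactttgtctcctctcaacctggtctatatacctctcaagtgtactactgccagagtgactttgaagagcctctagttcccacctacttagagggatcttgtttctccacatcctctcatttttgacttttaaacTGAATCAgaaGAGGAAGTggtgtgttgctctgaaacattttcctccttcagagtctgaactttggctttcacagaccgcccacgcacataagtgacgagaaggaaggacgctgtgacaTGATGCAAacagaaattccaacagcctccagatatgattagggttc
In order along each line, capitals mark an AP-1 match (searched as TGANTCA), a PU.1 match (GAGGAAGT) and a composite C/EBP-ATF match (TGATGCAA), all searched on both strands. Over the bases they could be aligned on, the windows were 99.2% (a and b), 98.0% (a and d) and 98.8% (b and d) identical. The PU.1 match began at -104, -148 and -104 and the AP-1 match at -120, -164 and -114 from the start of Bcl2a1a, Bcl2a1b and Bcl2a1d. The annotated start of Bcl2a1b lies farther downstream, and all 3 copies held each of these matches once. Among 32851 RefSeq promoter windows of this length, 7.81% held the AP-1 letters, 3.2% the PU.1 letters and 0.895% the C/EBP-ATF letters. None of these letters occurred in the windows of the other 5 members, and the NF-kB consensus, present in 4.51% of all windows, was found in only 1 of the 3 Bcl2l1 windows. A match describes letters, not binding.

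Bcl2a1 was highest in cluster 0, the Cd207, Il12b and Ccl22 macrophages. Its summed level there was 5547, 4844 and 2596 CPM (UMIs scaled to the same total for each mouse and cluster) in mice 1, 2 and 3, a mean of 4329 ± 1542 CPM (SD, n = 3). Cluster 0 was above all 14 other macrophage clusters within each of the 3 mice, and over the mice its range overlapped with that of cluster 2 alone. The fitted log2 difference between cluster 0 and the mean of the other clusters was 2.14 ± 0.12 (SE). With every cell thinned to 2000 UMIs, 97.1% of the 1390 remaining cells of cluster 0 had a Bcl2a1 UMI, with a median of 6. Cluster 0 supplied 39.2%, 27.7% and 23.1% of the Bcl2a1 UMIs of the macrophage clusters in mice 1, 2 and 3, against 13.8%, 11.5% and 10.0% of all UMIs of those clusters. Of the inflammatory markers (Il1b, Tnf, Cxcl2 and others), 11 of 12 were also higher in cluster 0, with none among its leading genes. The count was 9 in clusters 3 and 4, 8 in clusters 7 and 14 and 6 in cluster 8. It was 5 in cluster 2, the next in summed Bcl2a1, and 5 in cluster 11, the lowest. The part of these markers in the Bcl2a1 level was not tested.

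Cluster 2, led by Il1r2 and Rrad, came next with 2691, 3089 and 1506 CPM of summed Bcl2a1 and a log2 difference of 1.14 ± 0.14. The interferon-like cluster 8 had 1720 (on 8 cells), 2562 and 1126 CPM, and the S phase-like cluster 12 had 2331, 1844 and 1180 CPM. Apart from the step above the lowest pair, neighbours in the order overlapped, so most of the ranking between these clusters and the hypoxia-like cluster 9, the mitotic cluster 5 and clusters 3, 13, 4, 1, 7, 10 and 14 is not resolved by 3 mice.

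At the other end stood the Txnip and Il16 macrophages of cluster 6, with 466, 561 and 376 CPM, and the LYVE-1 resident-like cluster 11, with 312, 609 and 243 CPM. The log2 differences were -1.59 ± 0.18 and -1.84 ± 0.19, and the measured level in cluster 0 averaged 11.2 times that in cluster 11, a ratio that takes in the background described below. The difference of cluster 11 was -1.11 with clusters and levels from separate random sets of the UMIs and -1.13 with a larger set of variable genes. The other LYVE-1 resident-like cluster, cluster 3, had 1255, 1926 and 978 CPM, above the whole range of cluster 11. The 2 clusters also differed in depth, with a median of 24207 UMIs in cluster 3 and 8325.5 in cluster 11. Of the cells of cluster 3, 14.2% were among those with the highest Scrublet doublet scores, the largest share of any cluster, against 0% in cluster 11. Doublets were kept, and the part of depth or doublets in the gap was not tested. After thinning, 81.2% of cells in cluster 3 and 30.7% in cluster 11 had a Bcl2a1 UMI. As a measure of background, in the tumour epithelium-like cluster 15, in which Bcl2a1 should be silent, 37.0% of the 46 thinned cells had one (median of 5956 UMIs before thinning), and its level was 457 and 458 CPM in mice 2 and 3. Csf1r UMIs were found in 32.3% of its cells, and whether such UMIs were free RNA or came from macrophages caught with epithelial cells was not tested. The pooled share in cluster 11 lay below that background, and its mean level of 388 CPM lay below both of those values. Within mice the order was not the same. Cluster 11 was above cluster 15 in mouse 2 (609 against 457 CPM) and below it in mouse 3 (243 against 458 CPM). So was cluster 6, with 561 and 376 CPM in these mice. In mouse 1 cluster 15 had 0 Bcl2a1 UMIs on 4 cells. After thinning, 49.5% of cells in cluster 6 had a Bcl2a1 UMI, above the pooled share in cluster 15, and its mean of 468 CPM lay above both background values. By mouse the shares in clusters 6 and 15 were 59.6% against 27.3% in mouse 2 and 41.4% against 42.4% in mouse 3. As the order against cluster 15 differed between these mice, the levels of clusters 6 and 11 are not read as expression.

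**Figure D1:**
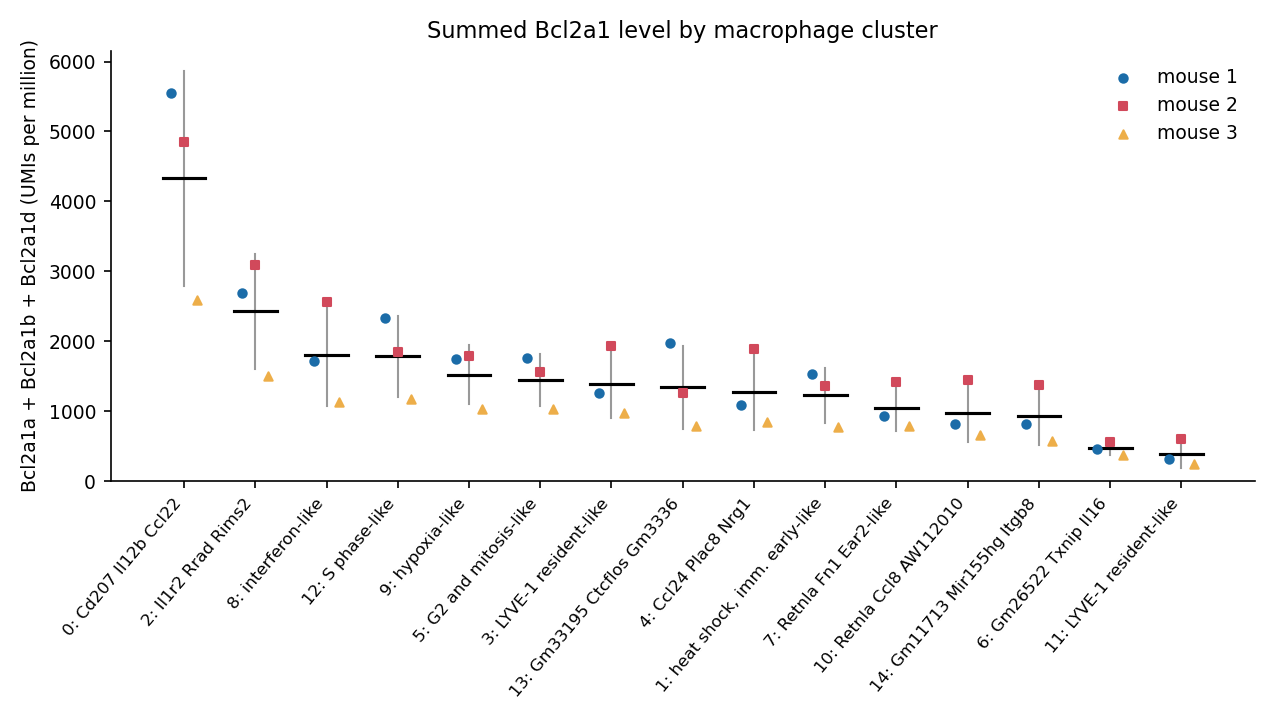
Summed level of Bcl2a1a, Bcl2a1b and Bcl2a1d (vertical axis, CPM, linear) in the 15 macrophage clusters, ordered by their mean, with a point for each mouse, a bar for the mean and a line for 1 SD to each side. Cluster 0 lies highest in every mouse, clusters 6 and 11 lie lowest, and mouse 3 is the lowest point in all 15 clusters.

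The copies followed each other across clusters. In cluster 0, Bcl2a1a had 997, 778 and 398 CPM, Bcl2a1b 4260, 3875 and 2085 CPM, and Bcl2a1d 290, 192 and 112 CPM in mice 1, 2 and 3. For each copy this was the highest mean of the 15 clusters, and each was higher in cluster 0 than in all 14 others in each mouse. The log2 differences were 2.41 ± 0.14, 2.08 ± 0.12 and 2.42 ± 0.11. Bcl2a1a and Bcl2a1d were lowest in cluster 6 (43.0 ± 15.2 and 9.57 ± 1.02 CPM) and Bcl2a1b in cluster 11 (310.7 ± 151.4 CPM; SD, n = 3). Over the 44 mouse-and-cluster sums, with each mouse's mean subtracted, log levels correlated at 0.88 (a and b), 0.92 (a and d) and 0.90 (b and d) by Pearson's r. These points share libraries and reads that could belong to another copy, so the coefficients are a description only.

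Bcl2a1b took most of the family's UMIs. Of the summed Bcl2a1 UMIs, 81.3 ± 2.03% were assigned to Bcl2a1b, 14.8 ± 1.65% to Bcl2a1a and 3.96 ± 0.65% to Bcl2a1d (SD, n = 3 mice). The transcripts are of like length (817, 819 and 863 bases for b, a and d), but the copies differ in how many of their reads are unique among the copies, and Bcl2a1d has the fewest. The Bcl2a1a share was highest in the Retnla Fn1 Ear2-like cluster 7, with 34.2%, 20.5% and 17.9% in mice 1, 2 and 3. The value of mouse 1 rests on 10 cells and 240 UMIs. The Bcl2a1a share was lowest in clusters 6 (9.26 ± 3.11%), 1 (9.90 ± 2.25%) and 13 (10.4 ± 0.35%), and the ranges of all 3 lay below that of cluster 7. Among cells with a Bcl2a1a UMI, 96.0%, 98.1% and 97.9% also had a Bcl2a1b UMI, against 73.1%, 82.5% and 79.5% of cells without one. The cells with Bcl2a1a were deeper, with medians of 17800, 16050 and 10960 UMIs against 10460, 8718 and 7924, and the part of depth in this was not tested.

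**Figure D2:**
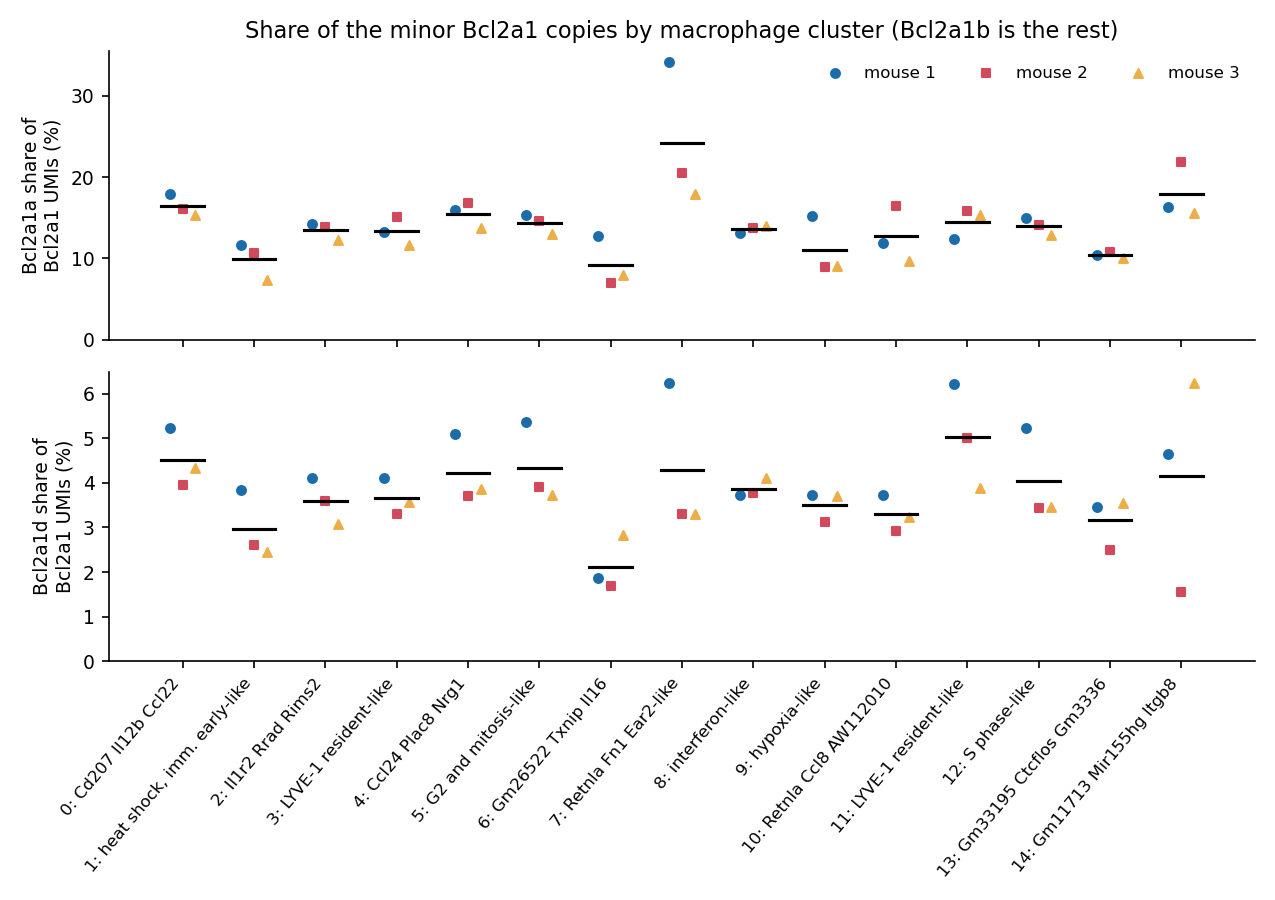
Percent of the summed Bcl2a1 UMIs assigned to Bcl2a1a (top) and to Bcl2a1d (bottom) in each macrophage cluster, with a point for each mouse and a bar for the mean, while Bcl2a1b makes up the rest. The Bcl2a1a share reaches 34.2% in cluster 7 of mouse 1, on 240 UMIs, and the Bcl2a1d share has its lowest mean in cluster 6.

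Mouse 3 had the lowest summed Bcl2a1 level in all 15 macrophage clusters. Over all cells of the macrophage clusters the level was 1951, 2016 and 1130 CPM in mice 1, 2 and 3. Bcl2a1a was lowest in mouse 3 in 15 clusters, Bcl2a1b in 14 and Bcl2a1d in 13. Mcl1, at 805, 915 and 722 CPM, was highest in mouse 2 in 13 clusters. Bax did not follow, with 170.5, 165.9 and 180.1 CPM, and mouse 3 was the lowest in none of the clusters. Each mouse was 1 library, with its own depth and its own share of removed barcodes, so mouse and library cannot be told apart.

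Mcl1 (ENSMUSG00000038612, chr3:95658788-95663176, plus strand) followed another order than Bcl2a1. It was highest in cluster 11, the LYVE-1 resident-like cluster in which Bcl2a1 was lowest, with 1026, 1303 and 1059 CPM and a log2 difference of 0.70 ± 0.10. Under other settings that difference was smaller, at 0.30 with at least 1000 genes per cell, 0.37 with separate sets of the UMIs and 0.41 with at most 8% mitochondrial UMIs. The Ccl24 and Plac8 macrophages of cluster 4 followed with 934, 1212 and 935 CPM and 0.64 ± 0.10, overlapping with cluster 11, so the order of these clusters is not resolved. The range of cluster 11 lay above those of 12 of the 14 other clusters, the deeper LYVE-1 resident-like cluster 3 (865, 1011 and 775 CPM) among them. In cluster 0 the Mcl1 level was 917, 1009 and 702 CPM (0.52 ± 0.10). It was lowest in cluster 6, which was also poor in Bcl2a1, with 369, 384 and 299 CPM and a log2 difference of -1.23 ± 0.12. The shallow cluster 10 had 215, 487 and 385 CPM and cluster 13 had 425, 527 and 438 CPM. The span from cluster 11 to cluster 6 was 3.22-fold. Mcl1 is an early response gene and the cells were dissociated at 37°C. In the heat shock and immediate early-like cluster 1 it had 919, 1002 and 694 CPM, with a log2 difference of 0.30 ± 0.10. Of the 10 heat shock and immediate early markers, all were higher in cluster 1, and 9 were in each of clusters 11 and 3. No more than 3 were higher in any other macrophage cluster, the Mcl1-high cluster 4 among them. The part of dissociation in the Mcl1 level was not tested.

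Bcl2l1, which encodes BCL-XL (ENSMUSG00000007659, chr2:152780668-152831728, minus strand), was high in cluster 0, as Bcl2a1 was. It had 78.3, 119.7 and 78.9 CPM there, with a log2 difference of 0.99 ± 0.09. The mean was higher still in cluster 14, at 173, 64.5 and 90.4 CPM, but this rested on 9, 3 and 5 UMIs, and its log2 difference of 0.47 turned to -0.089 without mouse 1. Bcl2l1 was lowest in cluster 7, with 19.45, 40.03 and 40.95 CPM (-0.63 ± 0.12), and in cluster 11, with 29.0, 43.3 and 35.6 CPM (-0.66 ± 0.16), both clusters overlapping.

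Bcl2 itself (ENSMUSG00000057329, chr1:106538178-106714274, minus strand) gave few UMIs. It averaged 30.6 ± 4.04 CPM over the mice. The heat shock and immediate early-like cluster 1 had 57.3, 48.8 and 32.0 CPM (0.50 ± 0.15) and cluster 13 had 44.0, 36.6 and 39.1 CPM. Cluster 11 had the lowest mean, with 9.68, 19.2 and 10.8 CPM (-1.31 ± 0.30), overlapping with 4 other clusters. That difference was -0.52 with separate sets of the UMIs and -0.81 with at most 8% mitochondrial UMIs. Cluster 14 read 383, 21.5 and 54.2 CPM on 20, 1 and 3 UMIs. Its log2 difference of 1.90 became -0.076 without mouse 1, so 1 library sets that value. In cluster 0, Bcl2 had a log2 difference of 0.08, no higher than the median of all tested genes there (0.0992).

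Bax (ENSMUSG00000003873, chr7:45461697-45466898, minus strand), the pore former, varied the least of the 8, with a 3.03-fold span from its highest to its lowest cluster. It was highest in the hypoxia-like cluster 9, with 249.6, 217.9 and 231.0 CPM (232.8 ± 15.9 CPM; SD, n = 3) and a log2 difference of 0.51 ± 0.09. The interferon-like cluster 8 (241, 162 and 208 CPM) overlapped with it only through mouse 1, on 8 cells and 30 UMIs, and the 13 others did not overlap. The S phase-like cluster 12 had 212, 187 and 204 CPM. In cluster 0 the level was 168, 151.5 and 172 CPM (0.24 ± 0.08), close to the mean over all macrophage clusters of 172 ± 7.26 CPM. Bax was lowest in cluster 14, at 115, 43.0 and 72.3 CPM on 6, 2 and 4 UMIs (-1.72 ± 0.29). In that cluster the median log2 difference of all tested genes was itself -0.70, so most genes read lower there in this fit. A second predicted gene, Gm45808, overlaps Bax on the same strand.

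Bcl2l11, which encodes the BH3-only protein BIM (ENSMUSG00000027381, chr2:128126038-128162547, plus strand), was high in the same cluster as Bcl2a1. Cluster 0 had 288, 311 and 279 CPM (292.6 ± 16.3 CPM; SD, n = 3), with a log2 difference of 1.27 ± 0.10. The small cluster 14 was above it in every mouse, with 709, 559 and 524 CPM on 37, 26 and 29 UMIs and a log2 difference of 1.56 ± 0.23, and did not overlap with any other cluster. Bcl2l11 was lowest in cluster 6, with 65.4, 78.2 and 57.0 CPM (-1.37 ± 0.14), and in cluster 13 it had 83.1, 83.5 and 90.9 CPM. The span from cluster 14 to cluster 6 was 8.94-fold, and it rests on a shallow cluster of 81 cells. No cluster matched cluster 14 with at least 1000 genes per cell, or with at most 8% or 25% mitochondrial UMIs. Nor did any with separate sets of the UMIs or cells thinned to 2000 UMIs, so its level has no value there.

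**Figure D3:**
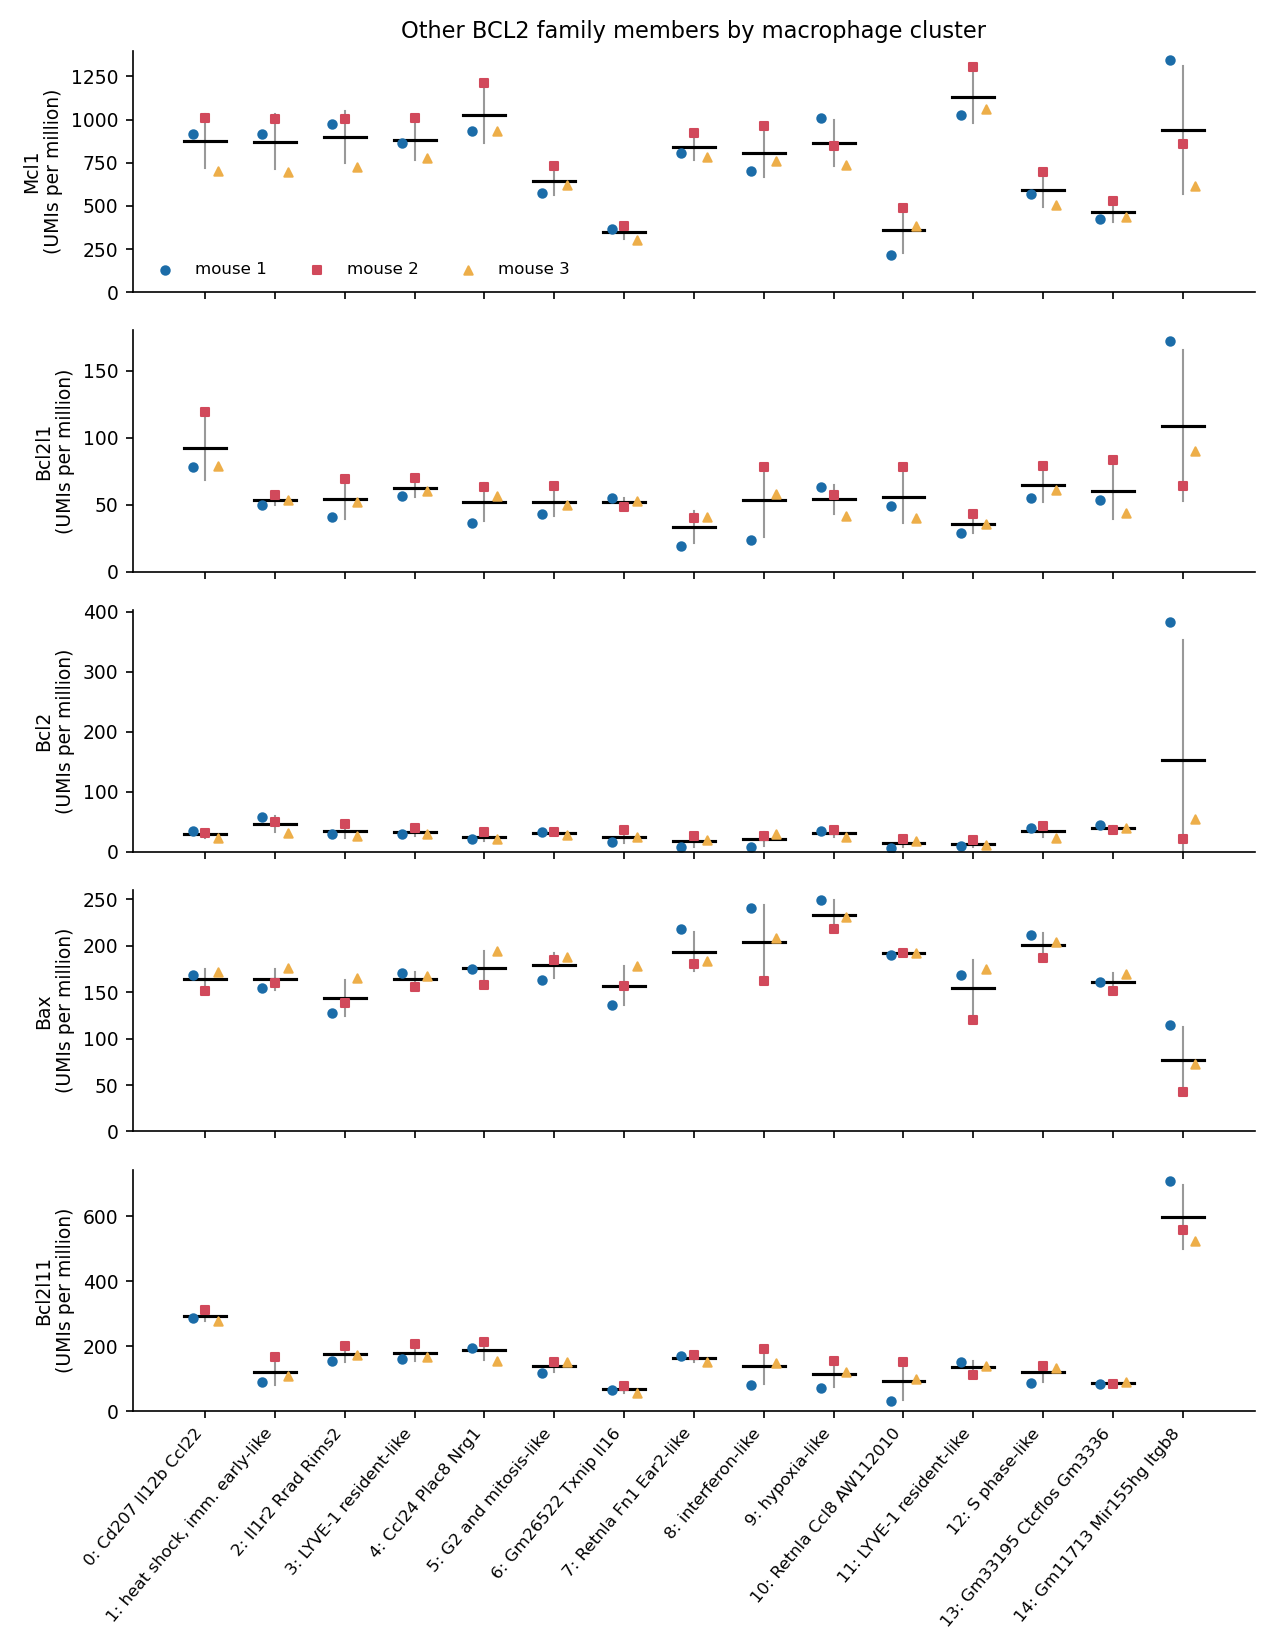
Level (CPM, linear axes that start at 0 and differ between panels) of Mcl1, Bcl2l1, Bcl2, Bax and Bcl2l11 by macrophage cluster, with a point for each mouse, a bar for the mean and a line for 1 SD to each side. Mcl1 is highest in cluster 11 and lowest in cluster 6, Bcl2l11 is high in clusters 14 and 0, Bax is lowest in cluster 14, and the high Bcl2 and Bcl2l1 means of cluster 14 come from mouse 1.

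Set side by side, cluster 0 had the highest mean of summed Bcl2a1 and, below cluster 14, the next highest means of the protective member Bcl2l1 and the trigger Bcl2l11, while its Mcl1 mean ranked 6 of 15. All 8 members had a log2 difference above 0 there, and 7 did with DESeq2 size factors or the DESeq2 Wald test, with cells of at least 1000 genes, with up to 25% mitochondrial UMIs and at Leiden resolution 1.5. The median of all tested genes in cluster 0 was itself 0.0992, so most genes were above 0 there, and Bcl2 (0.08) lay below that median. With DESeq2 size factors the median was -0.0395. As 3 of the 8 are near-identical copies, the count is not read as a rise of the family. Cluster 6 was low in Bcl2a1, Mcl1 and Bcl2l11 together, while its Bax (137, 157 and 178 CPM) and Bcl2l1 (54.8, 48.5 and 52.6 CPM) were near those of all macrophage clusters together. Cluster 11 combined the highest Mcl1 with the lowest Bcl2a1 and Bcl2 means and with low Bcl2l1, and its Bcl2l11 level was 153, 112 and 140 CPM. The 2 pairs with the strongest correlation outside the Bcl2a1 copies were Bcl2 with Bcl2l1 (r = 0.69) and Bcl2l11 with Mcl1 (r = 0.64), and Bcl2l11 with Bax had r = -0.53. The 44 sums share 3 libraries, and cluster 14 of mouse 1, high in both Bcl2 and Bcl2l1, is 1 point. In each mouse the sum of the shallow cluster 14 was the highest in Bcl2l11 and the lowest in Bax, with Bax on 6, 2 and 4 UMIs. How far the coefficients rest on cluster 14 was not tested.

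The order of clusters was shared by the mice to different degrees. Kendall's W, which is 1 where 3 mice rank the 14 clusters alike, was 0.93 for Bcl2a1b, 0.92 for Bcl2l11, 0.87 for the Bcl2a1 sum and 0.85 for Bax. Bcl2a1a, Mcl1 and Bcl2a1d had 0.83 each. Bcl2 (0.71) and Bcl2l1 (0.68) were closer to the median of 0.64 over all 10124 tested genes. Both are also the members with the fewest UMIs outside Bcl2a1.

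Several genes had nearly the pattern of a member, by Pearson's r over the same 44 sums and among genes averaging at least 20 CPM. Closest to the Bcl2a1 sum were Basp1 (r = 0.87), Pxdc1 (0.83), Smim3 (0.79), Il1a, a cytokine of the interleukin-1 family (0.78), and Procr, the protein C receptor (0.76). Closest to Bcl2l11 were Nfkb1, the p50 subunit of NF-kB (0.93), Malt1, a paracaspase of NF-kB signalling (0.91), and Arih2 (0.91). Closest to Mcl1 were Id2 (0.90), Ets2 (0.88) and Cebpb (0.87), which all encode transcriptional regulators. The Bax pattern was closest to Llph (0.92), Higd1a (0.92) and the proteasome subunit gene Psmb1 (0.91), that of Bcl2l1 to Gde1 (0.80), Cxcl16 (0.77) and Sema4d (0.77), and that of Bcl2 to Dnmt3a (0.80), Mtdh (0.77) and Ints12 (0.77). With log2(CPM + 10) in place of log2(CPM + 1), 1 of the 3 named for Bcl2 and 4 of the 5 named for Bcl2a1 were still among the closest. The points share library and depth, the sums of the shallow cluster 14 in each mouse are among them, and likeness says nothing of shared control.

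The rest of the pathway was read from 7 lists of 65 genes, of which 55 passed the filter on low counts. Those that did not were Bcl2l10, Bok, Bik, Hrk, Bcl2l14, Bcl2l15, Tnfrsf10b, Phlda3, Perp and Eda2r. Each gene was tested in each cluster against the mean of the other macrophage clusters (edgeR quasi-likelihood test, Benjamini-Hochberg adjustment over 10124 genes). The clusters come from the same cells, so these p-values are not independent of how the clusters were formed. Of 825 pairs of gene and cluster, 127 (15.4%) were higher and 58 (7.03%) lower, against 14.2% and 6.19% of all tested genes, so as a whole the lists were called about as often as any genes. Cluster 0 was no exception, with 10 of 55 higher (18.8% of all genes) and 3 lower (5.73% of all genes), and the median log2 difference of the lists was 0.09 against 0.10 for all genes. Of all genes called in cluster 0, 76.6% were higher, but 47.9% were with DESeq2 size factors, which moved the median of all genes by -0.139, and 56.6% with the shallow clusters 10 and 14 left out, which moved it by -0.107. Leaving out those clusters gave 106 higher and 85 lower list calls over 13 clusters, a share of 55.5% higher against 68.6% with them. Without mouse 2 the list calls numbered 75 higher and 29 lower, without mouse 3 they numbered 81 and 30, and without the mouse block 87 and 28.

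The lists were read against the background cluster by cluster. Cluster 7 had 15 of 55 higher (17.1% of all genes) and 3 lower (6% of all genes), cluster 6 had 17 higher (25.5%) and 9 lower (12.6%), and cluster 12 had 14 higher (21.2%) and 6 lower (9.09%). Cluster 11 had 13 higher (20.1%) and 7 lower (10.6%), cluster 4 had 10 higher (18.5%) and 4 lower (5.86%), and cluster 9 had 8 higher (13.2%) and 3 lower (6.56%). The only gap of 10 points or more between the lists' share and that of all genes was in cluster 7, where 27.3% of list genes were higher. The counts were lower in clusters 2 (4 higher, 10.1%, and 1 lower, 1.64%), 3 (7 higher, 13.5%, and 1 lower, 0.593%) and 5 (7 higher, 18.9%, and 1 lower, 5.79%), and cluster 1 had 6 higher (10.5%) and 5 lower (4.24%). Cluster 8 had 7 higher (7.46%) and 0 lower (0.751%), and the count of lower list genes there was also 0 at an unadjusted edgeR p under 0.05 and by the DESeq2 Wald test. The last 3 were clusters 10 (5 higher, 7.71%, and 5 lower, 5.57%), 13 (1 higher, 4.96%, and 4 lower, 1.87%) and 14 (3 higher, 5.2%, and 6 lower, 15.9%).

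**Figure D4:**
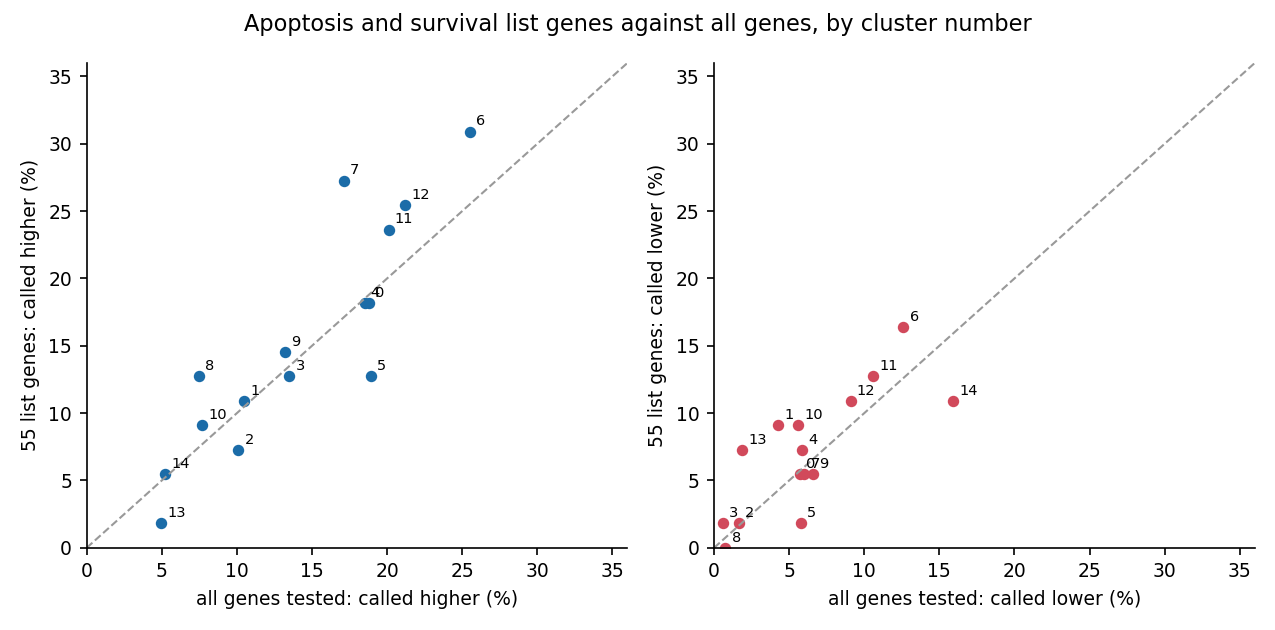
Percent of the 55 tested list genes called higher (left) or lower (right) in a cluster, plotted against the percent of all 10124 genes, with a point for each macrophage cluster labelled by its number and a dashed line where both are equal. Most points lie near the line, and the widest gap is in cluster 7, with 27.3% of list genes higher against 17.1% of all genes.

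Of the other anti-apoptotic genes 1 of 30 pairs was higher and 1 lower, against 14.2% and 6.19% of all tested genes over the clusters. Both genes were too low for the rule on named genes and are named because the counts are small. Bcl2a1c, a further family member with 130 UMIs in all, was higher in cluster 0 (log2 difference 2.58 ± 0.48), and Bcl2l2, which encodes BCL-W, was lower in cluster 13 (-2.83 ± 0.92, at 0.303 CPM). For Bak1, the other pore former and chosen in the same way, 2 of 15 pairs were higher and 2 lower. It was higher in clusters 9 (71.1 ± 7.50 CPM, log2 0.41) and 12 (77.2 ± 18.2 CPM, log2 0.42) and lower in clusters 4 (42.0 ± 4.88 CPM, log2 -0.33) and 11 (41.1 ± 11.5 CPM, log2 -0.59).

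Of the other BH3-only genes, 10 of 75 pairs were higher and 6 lower (14.2% and 6.19% of all tested genes). Pmaip1, which encodes NOXA, a binder of MCL1, was higher in the heat shock and immediate early-like cluster 1, at 70.1 ± 23.6 CPM against 28.3 CPM in the other clusters, in 3 of 3 mice (log2 1.40 ± 0.17, edgeR adjusted p = 2.35e-07). Bad, another BH3-only gene, was lower in cluster 14 on 1 UMI, a ratio of 0.169 to the pooled other clusters with an exact 95% counting interval of 0.00428 to 0.942, with an adjusted p of 0.00457 by edgeR and 0.0906 by the DESeq2 Wald test.

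Of the atypical members 6 of 60 pairs were higher and 1 lower (14.2% and 6.19% of all tested genes). Bnip3 and Bnip3l, which mark mitochondria for removal and are textbook targets of hypoxia-inducible factor, were both higher in the hypoxia-like cluster 9. Bnip3 had 196.5 ± 180 CPM there against 28.6 CPM in the others (log2 2.56 ± 0.21, edgeR adjusted p = 2.00e-10), higher in 3 of 3 mice but with a wide spread. Bnip3l had 140 ± 57.8 against 89.3 CPM (log2 0.61 ± 0.10, edgeR adjusted p = 7.53e-06), and at 2000 UMIs per cell the log2 difference was 0.28 (adjusted p = 0.4996).

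In the mitochondrial death machinery 37 of 225 pairs were higher and 12 lower (14.2% and 6.19% of all tested genes). Cytochrome c (Cycs) was higher in the S phase-like cluster 12, at 237 ± 7.13 against 140 CPM (log2 0.83 ± 0.10, edgeR adjusted p = 1.57e-09). Aifm1, an intermembrane-space flavoprotein, rose there as well (37.3 ± 3.13 against 21.5 CPM, log2 0.73 ± 0.16). At 2000 UMIs per cell its log2 difference was as large, at 0.74, but did not pass the test (adjusted p = 0.239). The outer-membrane channel gene Vdac1 was higher in cluster 9 (226 ± 48.2 against 118 CPM, log2 0.97 ± 0.10), and at 2000 UMIs per cell the log2 difference was 0.51 (adjusted p = 0.0509). Vdac2, a relative that binds BAK, fell in cluster 14 to 66.7 ± 36.2 CPM, on 10 UMIs, against 350 CPM in the others (log2 -2.96 ± 0.25, edgeR adjusted p = 3.48e-15).

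Inhibitors of apoptosis and death receptor genes gave 41 higher and 24 lower of 240 pairs (14.2% and 6.19% of all tested genes). Birc5, which encodes survivin, a protein of the mitotic spindle as well as an inhibitor of apoptosis, had 281 ± 28.2 CPM in the mitotic cluster 5 against 11.4 CPM in the others (log2 5.43 ± 0.17, edgeR adjusted p = 2.04e-20). The death receptor gene Fas was higher in clusters 7 (29.7 ± 14.8 against 8.36 CPM, log2 1.73 ± 0.19) and 11 (28.4 ± 9.58 against 8.51 CPM, log2 2.20 ± 0.24). Birc2, which encodes cIAP1, was higher in cluster 0 (42.7 ± 10.6 against 38.1 CPM, log2 0.79 ± 0.10, edgeR adjusted p = 3.95e-09). In the shallow cluster 14 the apoptosis inhibitors Birc2 (193 ± 83.6 against 26.9 CPM, log2 2.32 ± 0.34), Xiap (264 ± 73.7 against 55.04 CPM, log2 1.72 ± 0.29) and Cflar, the caspase-8 decoy c-FLIP (676 ± 308 against 170 CPM, log2 1.55 ± 0.18), were all higher, on 30, 40 and 103 UMIs. Cflar was lower in cluster 1 (95.4 ± 39.2 against 213 CPM, log2 -0.89 ± 0.11, edgeR adjusted p = 4.98e-09), and without the mouse block the log2 difference was -0.87 (adjusted p = 0.0712).

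Of the p53 pathway 30 of 180 pairs were higher and 12 lower (14.2% and 6.19% of all tested genes). Cdkn1a, the cell cycle inhibitor p21, and Gadd45b, a stress-response gene also driven by NF-kB, moved together. Both were higher in cluster 0 (481 ± 88.3 against 396 CPM, log2 0.81 ± 0.08, and 959 ± 324 against 515 CPM, log2 1.39 ± 0.17) and in cluster 4 (750 ± 92.7 against 376 CPM, log2 1.37 ± 0.08, and 923 ± 279 against 518 CPM, log2 1.21 ± 0.18). Both were also higher in clusters 2 (log2 0.86 and 0.98) and 3 (log2 0.61 each), and Cdkn1a in cluster 8 (log2 0.99). Cdkn1a had 535, 538 and 508 CPM in cluster 2 and 477, 579 and 457 CPM in cluster 3, against 455, 580 and 409 CPM in cluster 0. The log2 differences take the others' mean on the log scale, while the CPM of the others is a plain mean. Cdkn1a and Gadd45b were far lower in cluster 6, where Cdkn1a had 37.8 ± 3.80 against 428 CPM (log2 -3.45 ± 0.13, edgeR adjusted p = 1.32e-29) and Gadd45b 54.8 ± 6.91 against 581 CPM (log2 -3.29 ± 0.28, edgeR adjusted p = 1.42e-10). Sesn1, a sestrin, went the other way in cluster 6, at 63.3 ± 7.46 against 14.98 CPM (log2 2.67 ± 0.18, edgeR adjusted p = 2.64e-17). Mdm2, the ubiquitin ligase of p53, was higher in clusters 4 (143 ± 51.0 against 75.4 CPM, log2 1.22 ± 0.14) and 7 (141 ± 27.6 against 75.4 CPM, log2 0.90 ± 0.15). In cluster 11 Mdm2 was higher too (169 ± 122.5 against 73.5 CPM, log2 1.32 ± 0.17), but its log2 difference was 0.34 (adjusted p = 0.322) among cells with at least 1000 genes. Trp53 itself was lower in cluster 11 (29.4 ± 3.21 against 54.2 CPM, log2 -0.90 ± 0.16), and at 2000 UMIs per cell the log2 difference was -0.84 (adjusted p = 0.0672).

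Of the 64 pairs of gene and cluster that the rule for named genes chose, 24 were called under each alternative that gave a value, and 40 lost the call under at least 1, 6 of them only with cells thinned to 2000 UMIs, which leaves fewer counts. Calls lost without mouse 1 were Bad and Gadd45b in cluster 10 (log2 1.12 and -0.83, adjusted p = 0.0754 and 0.0672), Naip2 in cluster 4 (-0.41, adjusted p = 0.0564) and Trp53 in cluster 7 (-0.24, adjusted p = 0.0676). Calls lost without mouse 2 or without mouse 3 numbered 15 each, of 61 pairs that could be fitted. Without mouse 2 the differences of Pmaip1 in clusters 4 and 9 shrank to -0.086 and -0.24, against -0.84 and -1.21 with all mice (adjusted p = 1 in both). Without mouse 3 that of Casp6 in cluster 12 shrank to -0.086, against -0.60 with all mice (adjusted p = 1). Other calls were lost while the log2 difference stayed close to its value with all mice. Without mouse 2 these took in Birc3 in clusters 9 and 12 (-0.69 and -0.63, adjusted p = 0.0757 and 0.0644), Cycs in cluster 5 (0.38, adjusted p = 0.0808) and Endog in cluster 12 (1.17, adjusted p = 0.0710). Without mouse 3 they took in Sesn1 in clusters 11 and 13 (1.29 and 1.69, adjusted p = 0.127 and 0.297), Apaf1 in cluster 1 (-0.55, adjusted p = 0.170) and Cycs in cluster 10 (0.57, adjusted p = 0.0587). Both removals ended the calls of Bad in cluster 1, Birc2 and Trp53 in cluster 7, Birc3 in cluster 2, Gadd45b in clusters 3 and 13, Naip2 in clusters 0 and 4 and Pmaip1 in cluster 4.

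**Figure D5:**
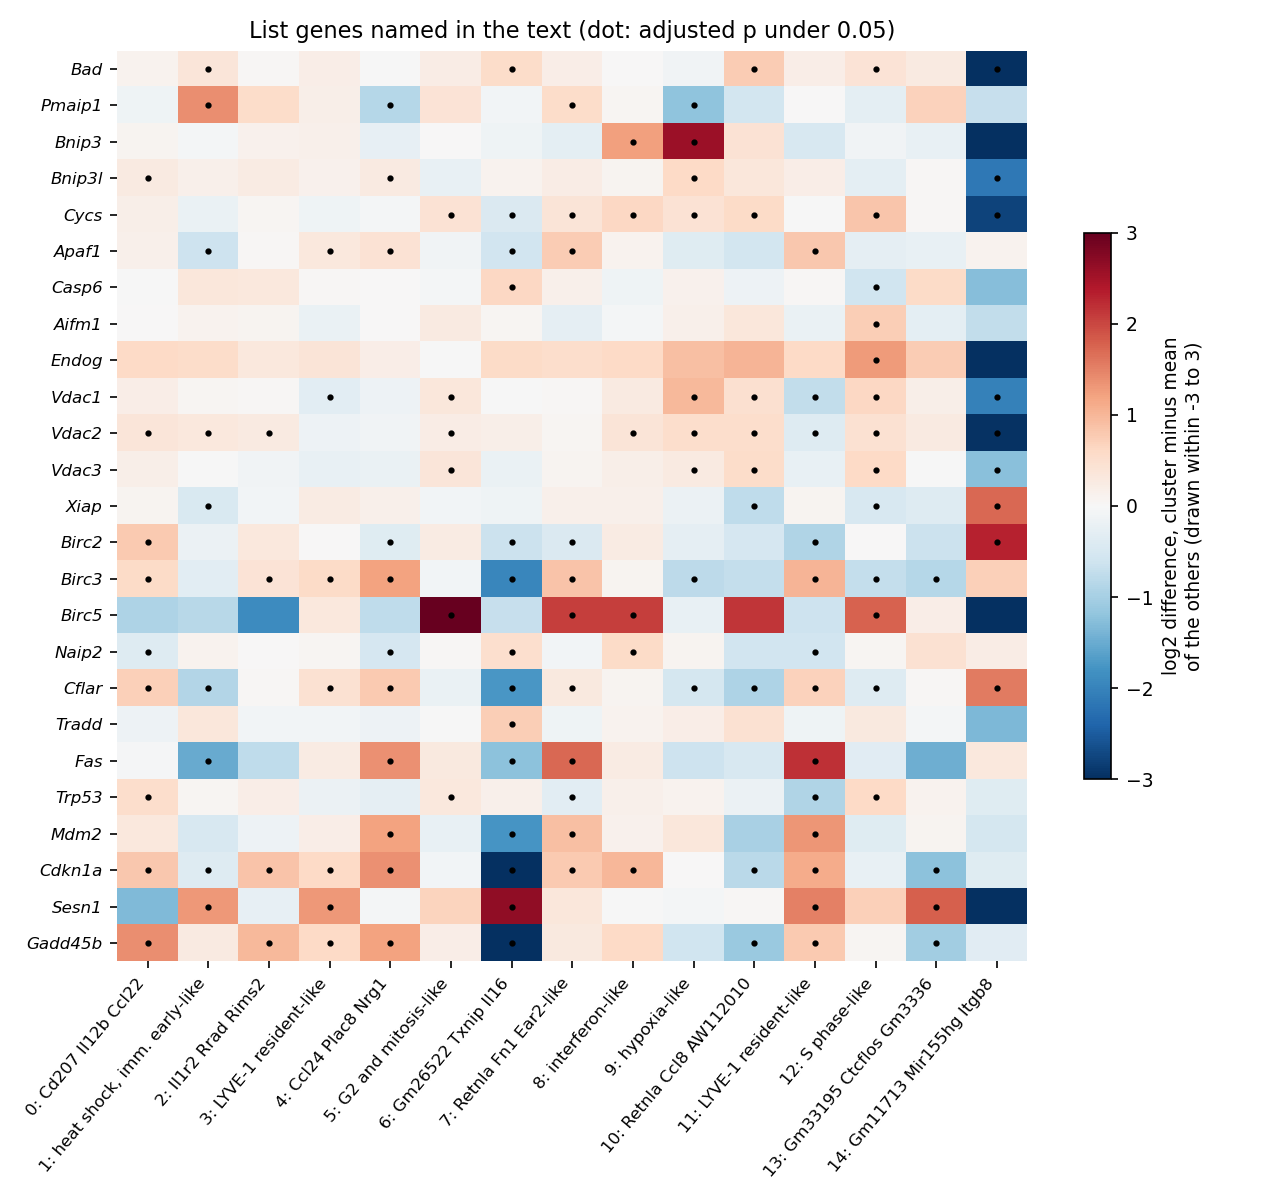
Log2 difference between each macrophage cluster and the mean of the others for 25 list genes that the rule for named genes chose (colour, drawn within -3 to 3), with a dot where the adjusted p was under 0.05. Cdkn1a and Gadd45b are high in clusters 0, 2, 3 and 4 and low in cluster 6, and Birc5 stands out in cluster 5 at 5.43.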

How the data were processed

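Per the file headers and the labels' protocols, the deposited matrices hold unnormalized UMI counts (genes by barcodes, 10x 3' v3 chemistry), made by the authors with Cell Ranger 3.0.2 on mm10, per the submitters' processing notes. The annotation version is not given in the sources used here. Kept cells held 11151535, 40293554 and 85551402 UMIs in mice 1, 2 and 3. Counting intervals cover counting error only, while SDs give the spread between mice. The p-values and SEs rest on the spread that cluster and mouse leave over the 44 sums, estimated for all clusters together. They do not measure the spread between mice in the cluster named.

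The members and lists were chosen with earlier results of these data known. A cell needed 500 detected genes and no more than 15% mitochondrial UMIs. Scrublet marked 11 cells (0.113%), so it did not work as a caller here. Doublets were kept, and 430 cells with the highest scores were removed in an alternative. Clustering (scanpy 1.11.5, Python 3.11.15, leidenalg 0.10.2) used 2000 variable genes scaled within mice, 30 principal components, 15 neighbours and Leiden resolution 1, leaving out 269 genes (members, list genes, ribosomal and mitochondrial genes). A cluster was named from a marker list when at least 5 markers were detected in 10% of its cells and lay 0.5 or more higher on the log2 scale, with at least 1 marker of that list among its 10 leading genes and more of them there than any other list had. Sequence identity came from Biopython 1.88, and gene positions from the GENCODE annotation of the same build.

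UMI counts were summed per mouse and cluster for clusters with at least 10 cells in at least 2 mice, which gave 44 sums. Cluster 8 entered from mice 2 and 3 only in the fit, with 8 cells in mouse 1. One edgeR 4.0.16 fit (R 4.3.3, TMM, filterByExpr, robust quasi-likelihood F test, 2-sided) held cluster and mouse, with the contrast of a cluster minus the unweighted mean of the others. It tested 10124 genes at an adjusted p of 0.05 and was tested on simulated data. The mouse is the same animal in each cluster, so the mouse block pairs the sums. SE is the log2 difference divided by the square root of F. For thinning, 9330 cells with 2000 UMIs or more were used and 419 left out. Named list genes were, in each cluster, up to the 3 largest higher and 2 largest lower past the threshold with the same sign in every mouse and at least 20 CPM in the cluster or the others. Of these, 1 gene is not reported here, though it stays in the counts. The genes with a like pattern were the 5 closest to the Bcl2a1 sum and the 3 closest to each of the 5 other members, with predicted genes left out. Alternatives were other cell filters, cluster settings, clusters and levels from separate random sets of UMIs, thinning, the DESeq2 1.42.0 Wald test, no low-count filter, no mouse block, other cell minimums, shallow clusters left out and each mouse left out. A further alternative, called DESeq2 size factors here, kept the edgeR fit and used size factors of the DESeq2 median-ratio type, computed in edgeR, in place of TMM.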

Additional observations from a re-analysis of the deposited data

Results flagged for a closer look

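The barcodes removed for more than 15% mitochondrial UMIs (387, 298 and 307 in mice 1, 2 and 3) entered no comparison, and they carried signal of the members. Summed Bcl2a1 was lower in them, at 539.1, 626.3 and 317.6 CPM, against 1951, 2016 and 1130 CPM in the kept cells of the macrophage clusters, used here throughout. Bcl2 was higher in them, at 98.15, 79.11 and 76.08 CPM against 31.6, 34.1 and 26.2 CPM. Bcl2l11 had 250.8, 217.6 and 156 CPM in the removed barcodes and 151.8, 188.7 and 159.9 CPM in those kept cells, higher in mice 1 and 2 and lower in mouse 3. Bax had 63.88, 64.61 and 100.8 CPM against 170.5, 165.9 and 180.1 CPM. The removed barcodes had medians of 3056, 2076 and 1508 UMIs, and the part of depth or damage in these values was not tested.

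The tumour epithelium-like cluster 15, outside the macrophage comparisons, had 457 and 457.9 CPM of summed Bcl2a1 in mice 2 and 3, within the ranges of macrophage clusters 6 and 11.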

How the results depend on the processing

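Summed Bcl2a1 in cluster 0 kept its direction under all 19 alternatives. Its log2 difference of 2.14 became 1.81 with clusters and levels from separate random sets of the UMIs, and 1.99 to 2.29 with 1 mouse left out. Without the replicate block it was 2.16. The list genes called higher in cluster 0 numbered 10, 6 with thinned cells and 7 to 14 with 1 mouse left out. Those called lower were 3 and unstable: 9 with at least 1000 genes, 8 with at most 8% mitochondrial UMIs or the DESeq2 Wald test, 7 at Leiden resolution 0.5 or with shallow clusters left out, 6 with Scrublet removal, 5 with at most 25% mitochondrial UMIs, separate UMI sets or DESeq2 size factors, and 1 with no low-count filter, no replicate block or 20 cells in every mouse. With 1 mouse left out they numbered 0 to 2. The Bcl2a1b share was 80.2% to 82.1% with 1 mouse left out.

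For members in their highest or lowest cluster, 17 comparisons could be made under some alternatives. Where clusters had no match there were fewer, with 8 at Leiden resolution 0.5 or with Scrublet removal and 12 with at least 1000 genes or at most 8% mitochondrial UMIs. Of the 277 that could be made, 251 moved by less than the spread, 24 moved and 2 reversed. Both reversals came without mouse 1 in cluster 14, where leaving out 1 mouse gave -0.076 to 2.57 for Bcl2 and -0.089 to 0.91 for Bcl2l1. Of 1071 for named list genes, 140 lost the call and 3 reversed: Naip2 in cluster 0 with separate UMI sets (0.00462), Cflar in cluster 10 at 8% mitochondrial UMIs (0.00979) and Sesn1 in cluster 13 after thinning (-0.74). The causes were not tested. With no block, 16 of 64 named pairs lost the call.

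Clusters 10 and 14, with few UMIs, limit what can be said of Bcl2, Bcl2l1, Bcl2l11 and Bax there. Alternatives were matched to clusters at a Jaccard overlap of at least 0.3, and unmatched clusters gave no value. Cluster 14 had no match with at least 1000 genes, at most 8% or 25% mitochondrial UMIs, Scrublet removal, Leiden resolution 0.5, separate UMI sets or thinning. Cluster 9, highest in Bax, had none with at least 1000 genes, at most 8% mitochondrial UMIs, Scrublet removal, Leiden resolution 0.5 or more variable genes. Cluster 11 had none with Scrublet removal or at Leiden resolution 0.5.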
